A study of Rattus norvegicus with 10 samples.

Results

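The 7 genes described here belong to the pathway through which skeletal muscle breaks down its own protein: the ubiquitin ligases Fbxo32 and Trim63, the transcription factors Foxo1, Foxo3 and Klf15, the growth inhibitor Mstn and the translation repressor Eif4ebp1. They were picked by gene symbol, with no cutoff on a measured value but with earlier results of these data known, and account for 7 of the 16497 symbols in the expression table. Each has 1 transcript in the table and all 7 passed the filter on low values. The tissue was subcutaneous muscle of female Wistar rats in which arthritis had been induced by immunisation with collagen in adjuvant, used as a model of rheumatoid arthritis (RA). RA_0 was taken before therapy. AP_1h and AP_34d were taken from animals treated with acupuncture (AP) after 1 h and 34 days, respectively. In this treatment a short needle was inserted and turned on both sides of the lower back and below the knee. Per the paper, needling was repeated every other day, so AP_34d followed a course of sessions. PLA_1h and PLA_34d were taken at the same times after placebo (PLA), saline injected into the peritoneum once a week. The paper describes no needling of placebo animals at the back or knee points. From which of these points each sample came is not given. All 5 groups carried the disease, all animals were shaved, and each group has 2 libraries from animals killed at that time. No healthy animals were included in these groups, and the time of day and the feeding state at sampling are not given in the sources used here.

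Muscle mass depends on the balance between protein synthesis and degradation. When insulin or growth factor signalling is strong, the kinase Akt phosphorylates the FoxO factors and keeps them out of the nucleus, and mTORC1 phosphorylates Eif4ebp1 so that it releases the cap-binding factor needed for translation. When that signalling falls, as in fasting or disuse, nuclear FoxO proteins switch on Fbxo32 (atrogin-1, also called MAFbx) and Trim63 (MuRF1), whose products mark muscle proteins for the proteasome. Glucocorticoids act on the same ligases through their receptor and through Klf15, and Mstn (myostatin), a secreted member of the TGF-beta family, restrains muscle growth through Smad signalling.

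The promoter of Trim63 is shown because the FoxO and glucocorticoid branches described above are both known to act on this gene. RefSeq gave a promoter window, assembly GRCr8, for 3 of the 7 genes (Trim63, Foxo1 and Klf15). The window was searched on both strands for GTAAACA, the core letters bound by FoxO factors, for TGTTCT, one arm of the glucocorticoid receptor's site, for CACGTG, the E-box bound by clock factors, and for TATAAA, the TATA box. The 250 bases before the start of Trim63, at chr5:151816986-151817235 on the plus strand, read 5′ to 3′ with the matches in capitals:
Trim63: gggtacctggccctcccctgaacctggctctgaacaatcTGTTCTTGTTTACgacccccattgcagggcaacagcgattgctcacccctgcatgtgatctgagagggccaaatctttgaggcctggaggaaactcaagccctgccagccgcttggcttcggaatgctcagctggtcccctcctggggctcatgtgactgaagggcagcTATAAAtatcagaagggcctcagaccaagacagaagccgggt
The first capitals hold TGTTCT on the plus strand, at 211 to 206 bases before the start, followed without a gap or overlap by GTAAACA on the minus strand, at 205 to 199 bases before the start. The second capitals, at 42 to 37 bases before the start, are TATAAA. Of 33469 rat promoter windows of 300 bases, 3.78% held GTAAACA, 20.7% held TGTTCT and 14.2% held TATAAA. The first pair stood directly side by side, in either order and on any strand, in 4 windows, that of Trim63 among them. This arrangement is the one seen in Trim63, so the count carries no test. The window of Klf15 held CACGTG at 101 to 96 bases before its start, as did 6.42% of all windows, and none of the other letters. The window of Foxo1 held none of the 4. A match describes the letters and does not show that a factor was bound in these rats.

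The values are read counts scaled by library size to counts per 1e+06 reads (CPM). Library totals ran from 5371687 to 8899521 counted reads, which makes 1 CPM equal to 4.19 to 10.1 reads. The 7 genes were covered by between 36 reads (Foxo1 in RA_0 replicate 1) and 24665 reads (Trim63 in AP_1h replicate 1). Fast muscle fibre markers (11 of 12 in the table) summed to between 88249 and 250123 CPM, and keratinocyte markers (4 of 8 in the table) to at most 6.97 CPM. Slow fibre markers (10 of 10) summed to between 10619 and 21576 CPM in RA_0, above both 1 h groups without overlap. The sums were 2495 to 4715 CPM in PLA_1h and 1090 to 1424 CPM in AP_1h. At 34 days they varied widely within groups, from 2232 to 13064 CPM in AP_34d and from 1967 to 20647 CPM in PLA_34d. Leukocyte markers (10 of 10, with Ptprc listed at 0 in all libraries) summed to 1084 CPM in PLA_34d replicate 1 and 609 CPM in AP_1h replicate 1, against 131 to 301 CPM in the other 8 libraries. In bulk tissue, fewer cells of a type and less RNA per cell cannot be told apart. The part of fibre type and of leukocytes in the results was not tested.

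Fbxo32 and Trim63 were the genes that differed most between groups, and both were highest under acupuncture. Fbxo32 (NM_133521, rn4 chr7:94909568-94942444, minus strand) is the muscle F-box protein that brings substrates to a cullin ligase. It measured 21.2 and 33.1 CPM in RA_0, 164 and 39.5 CPM in AP_1h, 78.9 and 93.0 CPM in PLA_1h, 148 and 490.1 CPM in AP_34d, and 37.1 and 29.9 CPM in PLA_34d. Every treated library except PLA_34d replicate 2 lay above both RA_0 libraries, and the AP_34d pair lay above all libraries of the other groups but 1, AP_1h replicate 1. In order of mean level, RA_0 and PLA_34d overlapped each other and lay below PLA_1h, while PLA_1h, AP_1h and AP_34d each overlapped the next. At 34 days the mean under acupuncture was 319 ± 242 CPM (SD, n = 2) and under placebo 33.5 ± 5.15 CPM (SD, n = 2), a ratio of means of 9.53. The difference in mean log2(CPM + 1) was 2.98 ± 0.66 (SE), with a 95% confidence interval of 1.51 to 4.45. It did not pass the threshold over all transcripts (limma, adjusted p = 0.756, unadjusted p = 0.0011).

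The 1 h samples of Fbxo32 did not separate the treatments. AP_1h exceeded RA_0 by 1.57 ± 0.66 and PLA_1h exceeded RA_0 by 1.65 ± 0.66 on the log2(CPM + 1) scale (limma, adjusted p = 0.531 and 1.00), and AP_1h minus PLA_1h was -0.09 with an interval of -1.56 to 1.39. Both treatments thus lay above RA_0 at 1 h, whereas at 34 days AP_34d exceeded RA_0 by 3.30 ± 0.66 (adjusted p = 0.419) and PLA_34d by 0.32 ± 0.66 (adjusted p = 0.940). The interaction, the treatment difference at 34 days minus that at 1 h, was 3.07 ± 0.94 with an interval of 0.98 to 5.15 (limma, unadjusted p = 0.00822, adjusted p = 1.00), and no transcript in the table passed for it. The sign of the 1 h treatment difference depended on 1 library. Without AP_1h replicate 2 it was 0.93, and without AP_1h replicate 1 it was -1.10.

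Trim63 (NM_080903, rn4 chr5:153059573-153073907, plus strand) encodes the RING-finger ligase that acts on proteins of the thick filament. It measured 306 and 276 CPM in RA_0, 2666 and 680.4 CPM in AP_1h, 468 and 646 CPM in PLA_1h, 1375 and 2296 CPM in AP_34d, and 196 and 364 CPM in PLA_34d. All 4 acupuncture libraries lay above all 6 others. In order of mean level, PLA_34d and RA_0 overlapped, PLA_1h lay above both without overlap, AP_1h lay above PLA_1h without overlap, and AP_1h and AP_34d overlapped. The mean in AP_34d was 1835 ± 651 CPM (SD, n = 2) against 280.02 ± 119 CPM in PLA_34d (SD, n = 2), a ratio of 6.55. The log2 difference was 2.73 ± 0.61 with an interval of 1.37 to 4.09 (limma, adjusted p = 0.756). At 1 h, acupuncture exceeded placebo by 1.29 ± 0.61 with an interval of -0.07 to 2.65 (adjusted p = 1.00), a value that moved between 0.31 and 2.28 with 1 library left out, the lowest without AP_1h replicate 1. Against RA_0 the differences were 2.21 ± 0.61 for AP_1h (adjusted p = 0.286), 2.61 ± 0.61 for AP_34d (adjusted p = 0.722), 0.92 ± 0.61 for PLA_1h (adjusted p = 1.00) and -0.12 ± 0.61 for PLA_34d (adjusted p = 0.975). The interaction was 1.44 ± 0.87 with an interval of -0.49 to 3.36 (adjusted p = 1.00), so a difference between the times was not shown for Trim63.

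**Figure D1:**
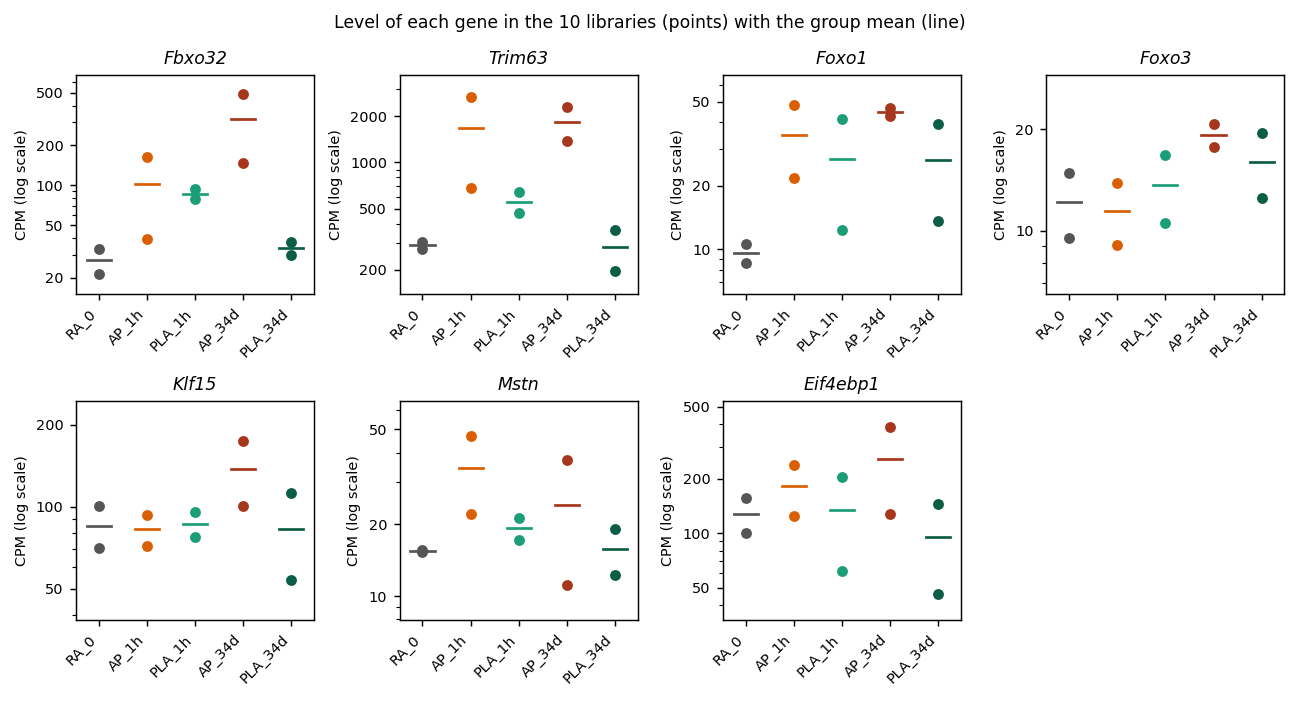
Level of each of the 7 genes in the 10 libraries, in CPM on a log axis. Points are libraries, lines are group means (n = 2 each), and each panel has its own axis range. The AP_34d points of Fbxo32, 148 and 490.1 CPM, lie above the PLA_34d points, 37.1 and 29.9 CPM, and the 4 acupuncture points of Trim63 lie above the other 6.

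Foxo1 (NM_001191846, rn4 chr2:141127345-141203446, plus strand), the FoxO factor most tied to fasting responses in muscle, was lower before therapy than in every treated library. It measured 8.59 and 10.5 CPM in RA_0, 48.2 and 21.8 CPM in AP_1h, 41.4 and 12.3 CPM in PLA_1h, 46.9 and 42.9 CPM in AP_34d, and 39.4 and 13.6 CPM in PLA_34d. RA_0 did not overlap the next group in order of mean level, PLA_34d, while PLA_34d, PLA_1h, AP_1h and AP_34d each overlapped the next. The log2 difference from RA_0 was 1.67 ± 0.61 for AP_1h (interval 0.31 to 3.04), 2.12 ± 0.61 for AP_34d (interval 0.76 to 3.49), 1.17 ± 0.61 for PLA_1h (interval -0.19 to 2.54) and 1.21 ± 0.61 for PLA_34d (interval -0.16 to 2.57). None of the 4 passed (limma, adjusted p between 0.464 and 1.00). The treatments were not told apart at either time: the difference was 0.50 with an interval of -0.87 to 1.86 at 1 h, 0.91 with an interval of -0.45 to 2.28 at 34 days, and 0.42 with an interval of -1.51 to 2.35 for the interaction. The high values outside AP_34d, 48.2, 41.4 and 39.4 CPM, came from AP_1h replicate 1, PLA_1h replicate 1 and PLA_34d replicate 1. Leukocyte markers summed to 609, 213 and 1084 CPM there, against 189, 192 and 131 CPM in the other library of each group. In AP_34d, with Foxo1 at 46.9 and 42.9 CPM, they summed to 301 and 162 CPM. In RA_0, with Foxo1 at 8.59 and 10.5 CPM, they summed to 168 and 145 CPM. The part of leukocytes in the Foxo1 level was not tested. The difference between AP_34d and PLA_34d was 1.65 without PLA_34d replicate 1 and 0.18 without PLA_34d replicate 2, the highest and lowest values over the alternatives.

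Foxo3 (NM_001106395, rn4 chr20:46171784-46262818, minus strand), the FoxO factor that also drives autophagy genes in muscle, varied over a 2.28-fold range. It measured 9.54 and 14.9 CPM in RA_0, 13.8 and 9.10 CPM in AP_1h, 16.8 and 10.5 CPM in PLA_1h, 17.8 and 20.8 CPM in AP_34d, and 19.5 and 12.5 CPM in PLA_34d. All neighbouring groups in order of mean level overlapped. AP_34d lay above RA_0 in both libraries, with a log2 difference of 0.64 ± 0.38 and an interval of -0.21 to 1.50 (limma, adjusted p = 0.967). It was covered by 40 to 174 reads a library.

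Klf15 (NM_053536, rn4 chr4:124714395-124726991, plus strand), a direct target of the glucocorticoid receptor that promotes the breakdown of branched-chain amino acids, held nearly the same mean level in 4 of the groups. It measured 70.4 and 100.3 CPM in RA_0, 93.5 and 72.1 CPM in AP_1h, 77.7 and 95.5 CPM in PLA_1h, 100.6 and 174.6 CPM in AP_34d, and 53.8 and 112 CPM in PLA_34d. The 4 group means other than AP_34d lay between 82.8 and 86.6 CPM and overlapped, and the AP_34d mean was 138 ± 52.4 CPM (SD, n = 2). The log2 difference of AP_34d from RA_0 was 0.65 ± 0.42 (interval -0.27 to 1.58) and that from PLA_34d was 0.76 ± 0.42 (interval -0.16 to 1.69), and neither passed (limma, adjusted p = 0.967 and 0.873).

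Mstn (NM_019151, rn4 chr9:45426831-45431658, minus strand) measured 15.3 and 15.6 CPM in RA_0, 47.0 and 22.1 CPM in AP_1h, 17.2 and 21.2 CPM in PLA_1h, 11.1 and 37.05 CPM in AP_34d, and 12.3 and 19.2 CPM in PLA_34d. Its highest values, 47.0 and 37.05 CPM, came from the libraries that also held the highest Trim63 values, AP_1h replicate 1 and AP_34d replicate 2. AP_1h lay above both RA_0 and PLA_1h without overlap, by 1.02 ± 0.53 (interval -0.16 to 2.20) and 0.73 ± 0.53 (interval -0.45 to 1.91) on the log2 scale, and neither passed (limma, adjusted p = 0.630 and 1.00). In order of mean level (RA_0, PLA_34d, PLA_1h, AP_34d, AP_1h) every neighbouring pair of groups overlapped.

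Eif4ebp1 (NM_053857, rn4 chr16:69110522-69123895, minus strand) measured 156 and 99.8 CPM in RA_0, 239 and 125 CPM in AP_1h, 62.0 and 205 CPM in PLA_1h, 386 and 128 CPM in AP_34d, and 46.2 and 145 CPM in PLA_34d. Its spread within groups was as wide as that between them, and every neighbouring pair of groups overlapped. The widest difference, AP_34d from PLA_34d, was 1.43 ± 0.73 with an interval of -0.19 to 3.05 (limma, adjusted p = 0.865). Over Foxo3, Klf15, Mstn and Eif4ebp1, the 28 differences, interactions included, lay between -0.60 and 1.43 and none passed.

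**Figure D2:**
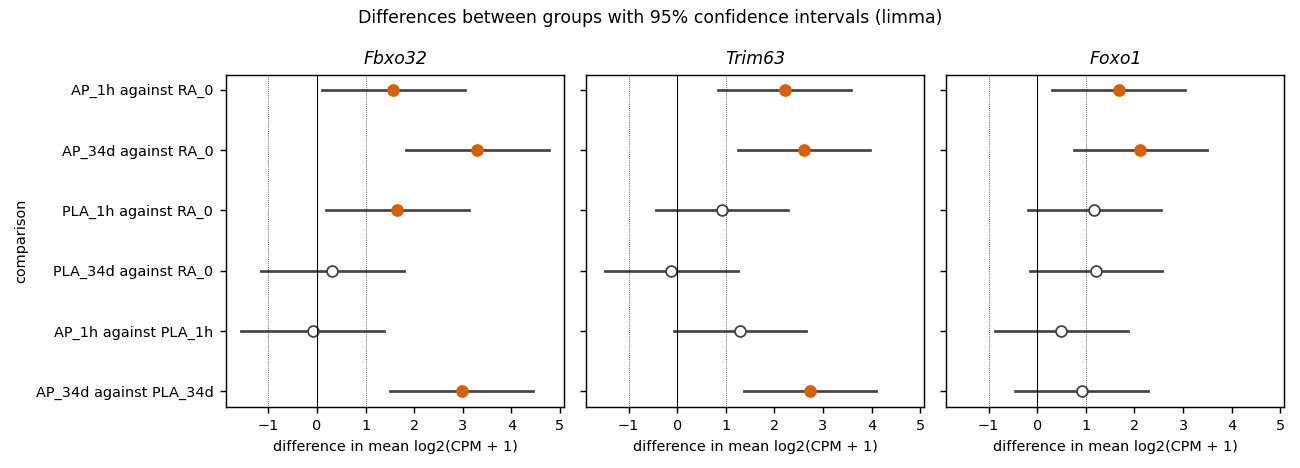
Difference in mean log2(CPM + 1) between groups for Fbxo32, Trim63 and Foxo1, with 95% confidence intervals from limma over all 10 libraries. Filled points meet the study's rule (unadjusted p under 0.05, a 2-fold or larger difference, a mean that reaches 1 CPM), and dotted lines mark a 2-fold difference. At 34 days the intervals of acupuncture against placebo run from 1.51 to 4.45 for Fbxo32, from 1.37 to 4.09 for Trim63 and from -0.45 to 2.28 for Foxo1.

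Counted over the 7 genes, no gene passed an adjusted p of 0.05 in limma in any of the 6 comparisons or in the interaction. Over all 10259 transcripts tested, the share that passed was 0.0292% for AP_1h against RA_0 and 0% for the other 6 tests. At an unadjusted p under 0.05 the counts of the 7 against RA_0 were 3 for AP_1h (8.89% of all transcripts), 3 for AP_34d (4.77%), 1 for PLA_1h (2.59%) and 0 for PLA_34d (3.2%). Between treatments they were 0 at 1 h (4.04%), 2 at 34 days (5.47%) and 1 for the interaction (4.05%). limma-voom and edgeR's quasi-likelihood test also called none. DESeq2 called Trim63 in AP_1h against RA_0 (log2 difference 2.51, adjusted p = 0.00256), where it called 1.62% of all transcripts. It called both ligases in AP_34d against RA_0 (0.322% of all transcripts) and in AP_34d against PLA_34d (0.848%). It called none of the 7 in PLA_1h (0.0975%) or PLA_34d (0.37%) against RA_0, in AP_1h against PLA_1h (0.38%) or in the interaction (0.214%). In AP_34d against PLA_34d its adjusted p was 0.000476 for Fbxo32 and 0.00227 for Trim63.

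The study's rule, applied to the limma fit, combines an unadjusted p under 0.05 with a 2-fold or larger difference and a mean level that reaches 1 CPM in the libraries compared. Of 10259 transcripts, 628 met it in either direction in AP_1h, 289 in AP_34d, 171 in PLA_1h and 248 in PLA_34d, each against RA_0. Between treatments, 269 met it at 1 h and 366 at 34 days. None of the 7 met it as lower, and the percentages below count transcripts that met the rule as higher. Fbxo32, Trim63 and Foxo1 met it as higher in AP_1h against RA_0, where 2.53% of all tested transcripts did, and the same 3 genes met it in AP_34d against RA_0, where 1.49% did. With AP_1h replicate 1 or RA_0 replicate 1 left out, Trim63 alone met it in the first of these, and Fbxo32 also lost it there without RA_0 replicate 2 or PLA_1h replicate 2. Fbxo32 alone met it in PLA_1h against RA_0 (0.994% of all transcripts), and did not without RA_0 replicate 1 or either library of PLA_1h. Foxo1 alone met it there without PLA_1h replicate 2. None of the 7 did in PLA_34d against RA_0 (1.98%) or in AP_1h against PLA_1h (0.975%), although Foxo1 did in the former without either library of PLA_1h or PLA_34d replicate 2, and Trim63 did in the latter without AP_1h replicate 2. Fbxo32 and Trim63 met it in AP_34d against PLA_34d (1.38%), and did so with any 1 of the 10 libraries left out, joined there by up to 2 of the other genes. These comparisons share control libraries, RA_0 in 4 of them, and are not independent of each other. The number of all transcripts that met the rule also changed when a library was left out. The leave-out results therefore cannot be set against these percentages.

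Both libraries of the first group lay above both of the second for 4 of the 7 genes in AP_1h against RA_0 (Fbxo32, Trim63, Foxo1 and Mstn), against 20.6% of all transcripts. The same 4 genes did so in PLA_1h against RA_0 (15.8% of all transcripts). In AP_34d against RA_0 it was 5 of 7 (Fbxo32, Trim63, Foxo1, Foxo3 and Klf15, against 16.4%), and in PLA_34d against RA_0 1 of 7 (Foxo1, against 16.8%). Between treatments it was 2 of 7 at 1 h (Trim63 and Mstn, against 13.9%) and 3 of 7 at 34 days (Fbxo32, Trim63 and Foxo1, against 16%).

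The 2 ligases varied together from library to library. Over the 10 libraries, Pearson's r between log2(CPM + 1) of Fbxo32 and Trim63 was 0.875 (permutation test with 100000 resamples, two-sided, p = 0.00089, adjusted over the 21 pairs of genes 0.0187) and Spearman's rho was 0.842 (permutation p = 0.00357, adjusted 0.075). Without the libraries farthest from the median, AP_34d replicate 2 and AP_1h replicate 1, r was 0.784. Within groups, after subtraction of the group means, r was 0.778, a value that was not tested and in which the 2 deviations of each group mirror each other. The permutations for all 21 pairs shuffled the 10 libraries without regard to group. Their p-values therefore treat the libraries as independent and do not separate shared group differences from variation between libraries of a group. The adjusted p rose to 0.0516, 0.0502 and 0.0644 without RA_0 replicate 2, PLA_1h replicate 2 and AP_34d replicate 2. No label gives a batch, so no value within batches can be had.

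**Figure D3:**
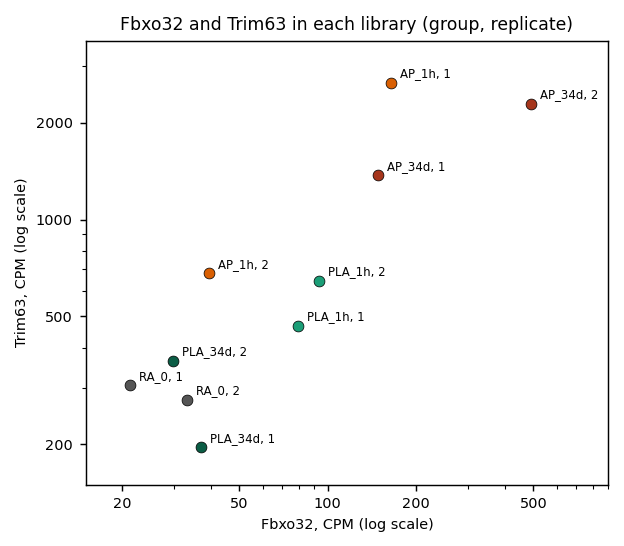
Level of Fbxo32 (x axis) and Trim63 (y axis) in each of the 10 libraries, in CPM on log axes, labelled by group and replicate. The libraries run from RA_0 and PLA_34d at the lower left to AP_34d replicate 2 (490.1 and 2296 CPM) at the upper right, with a Pearson's r of 0.875 on the log2(CPM + 1) scale.

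None of the other 20 pairs passed after adjustment. Foxo1 correlated with Fbxo32 at r = 0.682 (permutation p = 0.0286, adjusted 0.135; rho = 0.806, permutation p = 0.00722, adjusted 0.0758), which fell to 0.606 without the libraries farthest in Fbxo32 and to 0.326 within groups. With Trim63 its r was 0.578 (permutation p = 0.0849, adjusted 0.198; rho = 0.709, permutation p = 0.026, adjusted 0.182) and -0.00512 within groups. Foxo1 and Foxo3 gave r = 0.699 (permutation p = 0.0322, adjusted 0.135; rho = 0.564, permutation p = 0.0947, adjusted 0.331), 0.741 without RA_0, whose libraries are the farthest in Foxo1, and 0.886 within groups. Trim63 and Mstn gave r = 0.713 (permutation p = 0.0206, adjusted 0.135, with rho = 0.636, permutation p = 0.0549, adjusted 0.285) and 0.820 within groups. Their r was 0.0434 without AP_1h replicate 1 and AP_34d replicate 2, but 0.984 without AP_34d replicate 1. The value thus depended on which libraries were kept. The remaining values of r lay between -0.265 and 0.675.

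**Figure D4:**
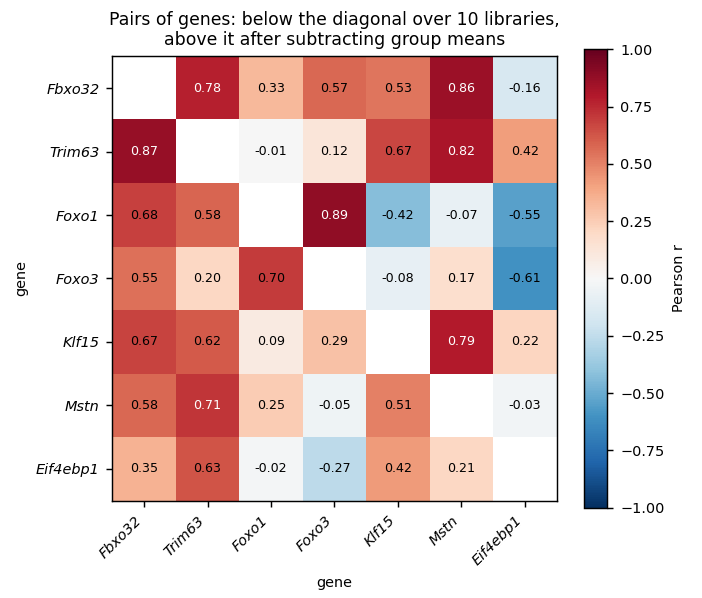
Pearson's r between log2(CPM + 1) of each pair of the 7 genes, below the diagonal over the 10 libraries and above it after subtraction of the group means. Fbxo32 and Trim63 stand at 0.875 over all libraries and 0.778 within groups, and Foxo1 and Trim63 at 0.578 and -0.00512.

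The wider pathway was read through 8 lists of known genes, given here by counts and medians. Over all transcripts, the share that met the study's rule as higher was 2.53% in AP_1h, 1.49% in AP_34d and 0.994% in PLA_1h, each against RA_0. In AP_34d against PLA_34d it was 1.38%. The other ubiquitin ligases and conjugation genes (23 of 26 tested) had 3 that met the study's rule as higher in AP_34d against PLA_34d, Fbxo31 and Fbxo30 among them, and 4 in AP_34d against RA_0, those 3 and Cblb. None met it in the other 4 comparisons or as lower, and none passed the adjusted threshold. The median log2 difference of the list in AP_34d against PLA_34d was 0.32, against 0.00 over all transcripts. It was 0.11 with quantile normalization and 0.16, with 2 transcripts meeting the rule, when the 20 most abundant transcripts were left out of the scaling. In this comparison the median over all transcripts was 0.03 with quantile normalization and -0.15 without those 20, which holds for every list below. Fbxo31, an F-box protein of the same class as Fbxo32, measured 12.9 and 18.8 CPM in AP_34d against 5.16 and 5.12 CPM in PLA_34d (log2 difference 1.43 ± 0.41, limma, adjusted p = 0.846). Cblb, a ligase that acts on insulin receptor substrate in unloaded muscle, measured 30.5 and 42.0 CPM in AP_34d, 8.11 and 18.1 CPM in RA_0, and 29.7 and 20.6 CPM in PLA_34d (AP_34d against RA_0 1.48 ± 0.39, adjusted p = 0.801).

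Autophagy and lysosome genes, the other degradation route that FoxO factors drive, had 5 of 20 transcripts that met the study's rule as higher in AP_34d against PLA_34d (Ctsl1, Gabarapl1, Sqstm1, Map1lc3b and Ulk1) and none as lower, with a list median of 0.42. With quantile normalization, or with the 20 most abundant transcripts left out of the scaling, the count was 3 and the median 0.27. The median over all transcripts was 0.03 and -0.15 under these scalings, respectively. Both AP_34d libraries lay above both PLA_34d libraries for 11 of the 20 and below for 1, against 16% and 15% of all transcripts. In AP_1h against PLA_1h the list median was 0.09 and the 1 transcript that met the rule, Wipi1, was lower. Ctsl1, the lysosomal protease cathepsin L, measured 598 and 938 CPM in AP_34d, 107 and 234 CPM in PLA_34d, 867 and 229.8 CPM in AP_1h, and 348 and 412 CPM in PLA_1h (AP_34d against PLA_34d 2.23 ± 0.59, limma, adjusted p = 0.846). Gabarapl1, which coats the autophagosome membrane, measured 575 and 415 CPM in AP_34d against 107 and 166 CPM in PLA_34d (1.87 ± 0.49, adjusted p = 0.846). Wipi1, which binds the forming autophagosome, measured 25.9 and 25.9 CPM in AP_1h, 98.0 and 62.2 CPM in RA_0, and 58.2 and 71.4 CPM in PLA_1h (AP_1h against RA_0 -1.56 ± 0.38, adjusted p = 0.241). DESeq2 called Ctsl1 and Gabarapl1 in AP_34d against PLA_34d and Wipi1 in AP_1h against RA_0.

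Other FoxO target genes (16 tested) gave counts in both directions at 34 days, with Pdk4 and Angptl4 higher and Sesn3 lower in AP_34d against PLA_34d. The list median was 0.49, which was 0.27 with quantile normalization and 0.32 without the 20 most abundant transcripts. Over all transcripts these medians were 0.00, 0.03 and -0.15. Pdk4, which holds back glucose oxidation in fasting, measured 1946 and 1094 CPM in AP_34d against 92.4 and 363 CPM in PLA_34d (2.98 ± 0.67, limma, adjusted p = 0.756). Gadd45a, a stress gene linked to denervation, measured 1109 and 526 CPM in AP_1h, 355 and 107 CPM in PLA_1h, and 38.9 and 87.9 CPM in RA_0 (AP_1h against RA_0 3.68 ± 0.70, adjusted p = 0.121). Cdkn1a, the cell cycle inhibitor p21, measured 369 and 462 CPM in PLA_1h and 368 and 286 CPM in AP_1h, against 20.3 and 81.4 CPM in RA_0 (PLA_1h against RA_0 3.30 ± 0.68, adjusted p = 1.00). In PLA_34d it measured 77.1 and 277 CPM.

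The regulators upstream of FoxO, which include the insulin receptor and Akt (18 transcripts tested), had none that met the rule in AP_34d against PLA_34d. Their list median was 0.01, against 0.00 over all transcripts. Without the 20 most abundant transcripts it was -0.14, against -0.15 over all transcripts. Sgk1, a kinase that phosphorylates Foxo3, measured 6.05 and 4.48 CPM in AP_1h and 1.91 and 1.93 CPM in RA_0 (1.09 ± 0.46, limma, adjusted p = 0.533), and overlaps other transcripts of the same gene whose shared reads were not counted. The RA_0 values of Sgk1 rest on 8 and 13 reads. The genes of mTORC1 and cap-dependent translation (20 tested) had none that met the rule in AP_34d against PLA_34d, with a median of 0.27 (0.13 with quantile normalization and 0.11 without the 20 most abundant transcripts), and 1 in AP_1h against RA_0, the helicase Eif4a1 at 164 and 132 CPM against 74.0 and 69.1 CPM (1.03 ± 0.34, adjusted p = 0.395). The myostatin and activin pathway (18 tested) had 2 higher (Inhbb and Tgfbr1) and 2 lower (Smad7 and Smurf1) in AP_1h against RA_0, of which neither of the lower 2 met the rule without the 20 most abundant transcripts. Its median in AP_34d against PLA_34d was 0.07, and -0.06 without the 20 most abundant transcripts, where the median over all transcripts was -0.15. Inhbb, which encodes an activin subunit, measured 9.18 and 5.38 CPM in AP_34d and 0.477 and 2.52 CPM in RA_0 (1.82 ± 0.56, adjusted p = 0.931). Its RA_0 values rest on only 2 and 17 reads. Tgfbr1, a type I receptor of the pathway, measured 128 and 83.8 CPM in AP_1h and 34.4 and 61.3 CPM in RA_0 (1.15 ± 0.42, adjusted p = 0.463). Smurf1, a ligase for Smad proteins, measured 23.7 and 17.2 CPM in AP_1h and 34.8 and 50.05 CPM in RA_0 (-1.01 ± 0.32, adjusted p = 0.363).

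**Figure D5:**
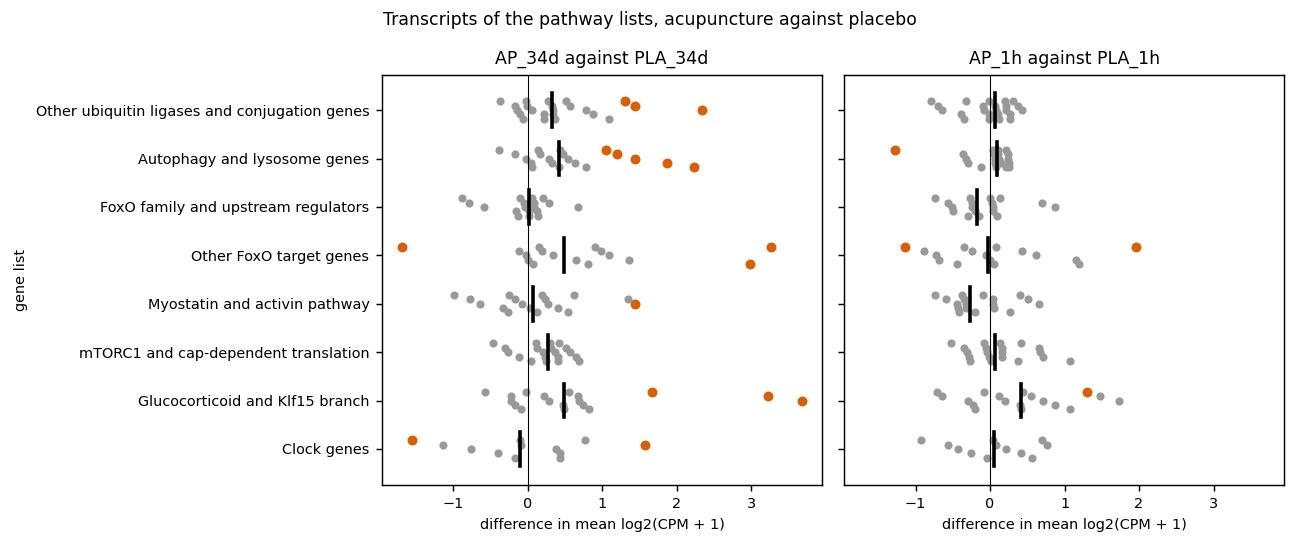
Difference in mean log2(CPM + 1) of each tested transcript (points) in the 8 pathway lists, for acupuncture against placebo at 34 days (left) and at 1 h (right). Coloured points meet the study's rule and vertical bars are list medians. At 34 days the medians of the autophagy and glucocorticoid lists are 0.42 and 0.48, and at 1 h they are 0.09 and 0.41.

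The glucocorticoid and Klf15 branch (18 tested) had 5 transcripts that met the rule as higher in AP_1h against RA_0, against 2.53% of all transcripts. They were Fkbp5, Tsc22d3, Mt2A, Mt1a and Sgk1, the last also counted among the regulators upstream of FoxO. The list median was 0.55. The branch had 3 higher in AP_34d against PLA_34d (Fkbp5, Mt1a and Mt2A) and none in PLA_34d against RA_0, where its median was -0.47. The median in AP_34d against PLA_34d, 0.48, was 0.32 with quantile normalization or without the 20 most abundant transcripts. Over all transcripts the median under these scalings was 0.03 and -0.15, respectively. Placebo at 1 h also had 3 higher against RA_0 (Fkbp5, Mt1a and Mt2A) and 1 lower (Per1), with a median of 0.09, and AP_34d against RA_0 had 4 higher (Fkbp5, Mt1a, Mt2A and Zbtb16) and 1 lower (Dusp1), with a median of 0.03. Klf15 itself averaged 82.8 CPM in AP_1h and 85.3 CPM in RA_0. Fkbp5, a chaperone partner of the glucocorticoid receptor, measured 21.5 and 21.7 CPM in RA_0, 239 and 149 CPM in AP_1h, 108 and 154 CPM in PLA_1h, 229 and 68.3 CPM in AP_34d, and 36.9 and 40.9 CPM in PLA_34d (AP_1h against RA_0 3.07 ± 0.50, limma, adjusted p = 0.0934). Tsc22d3, the glucocorticoid-induced leucine zipper, measured 864 and 848 CPM in AP_1h and between 209 and 397 CPM in the other 8 libraries (1.51 ± 0.30, adjusted p = 0.151). Mt2A, a metallothionein, measured 618 and 88.9 CPM in AP_1h, 6.92 and 22.3 CPM in RA_0, 80.2 and 61.2 CPM in PLA_1h, 63.7 and 93.1 CPM in AP_34d, and 1.79 and 12.2 CPM in PLA_34d (AP_1h against RA_0 4.12 ± 0.91, adjusted p = 0.233; PLA_1h against RA_0 2.39 ± 0.91, adjusted p = 1.00).

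Clock genes are given because the clock time of sampling is unknown. Arntl, the clock activator also called Bmal1, was the only gene of the 8 lists to pass, with 22.6 and 24.9 CPM in AP_1h against 2.62 and 3.86 CPM in RA_0 (2.56 ± 0.33, limma, adjusted p = 0.0459). The call was lost without any 1 of 7 libraries (both of RA_0, AP_1h and PLA_1h, and AP_34d replicate 2), and its adjusted p ranged from 1.71e-06 to 0.475 over the 24 alternatives. It measured 17.2 and 14.2 CPM in PLA_1h, 24.8 and 17.5 CPM in AP_34d, and 7.07 and 5.69 CPM in PLA_34d. Its output gene Dbp ran the other way, with 426 and 418 CPM in RA_0, 167 and 81.3 CPM in AP_1h, 137 and 181 CPM in PLA_1h, 58.6 and 143 CPM in AP_34d, and 249 and 295 CPM in PLA_34d (AP_34d against RA_0 -2.19 ± 0.46, adjusted p = 0.515). Both RA_0 libraries and both PLA_34d libraries, in which Fbxo32 and Trim63 were lowest, thus held less Arntl and more Dbp than the other 6. Dbp and Nr1d1 were the 2 of 12 clock genes that met the study's rule as lower in AP_1h against RA_0, with Arntl the 1 higher. Nr1d1, the clock repressor Rev-erb alpha, was lowest in AP_1h, at 13.7 and 9.24 CPM, and in PLA_34d, at 15.6 and 11.4 CPM, but overlaps a transcript of another gene. Per1, which answers both to the clock and to glucocorticoids, measured 116 and 140.2 CPM in RA_0, 142 and 42.1 CPM in AP_1h, and 48.3 and 68.6 CPM in PLA_1h. Ucp3, a mitochondrial carrier that is high in fasted muscle, measured 36.3 and 103 CPM in RA_0, 858 and 1008 CPM in AP_1h, 403 and 399 CPM in PLA_1h, 1177 and 528 CPM in AP_34d, and 28.3 and 69.7 CPM in PLA_34d. The part of clock time and of feeding in the levels of the ligases was not tested.

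Among the 8151 transcripts with a mean of at least 5 CPM, the pattern most like that of Trim63 over the 10 libraries was that of Utp14a (r = 0.977), followed by Ctsl1 (r = 0.957) and Pnpla7 (r = 0.951). For Fbxo32 it was Zfand2a (r = 0.954), Ubqln1 (r = 0.949) and Lgmn (r = 0.946), the last a lysosomal protease. For Foxo1 it was Mrc1 (r = 0.948), Eif1ad (r = 0.945) and F13a1 (r = 0.945), of which Mrc1 and F13a1 are genes of tissue macrophages. The nearest transcripts were Stk11ip for Foxo3 (r = 0.909), Txnrd1 for Klf15 (r = 0.916), Clcn4 for Mstn (r = 0.948) and Dirc2 for Eif4ebp1 (r = 0.962). These values describe the closest of many transcripts over 10 libraries that share scaling and depth, and carry no test.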

How the data were processed

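The study profiled polyadenylated RNA with unstranded TruSeq libraries on an Illumina HiSeq instrument. Per the submitters' processing notes, the authors used CASAVA 1.8.2, cutadapt 1.2.1, Bowtie2 2.1.0 against rn4, HTSeq 0.5.4p3 and edgeR 3.4.2. The deposited values are a signal per transcript, CPM that the authors scaled with edgeR's TMM factors, and are whole multiples of 1 read in every library (tolerance 0.01 reads), so reads could be recovered. Coordinates are shifted by 1 to count from 1.

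Tests used log2(CPM + 1), which understates folds of low transcripts. A transcript was kept if it reached 1 CPM in both libraries of any group (10259 of 17221, 59.6%). limma 3.58.1 (R 4.3.3) fitted 1 mean per group to all 10 libraries (eBayes with trend, 5 residual plus 5.14 prior degrees of freedom), and a Benjamini-Hochberg adjusted p under 0.05 over all transcripts counted as passing. The study's rule was read from the same fit. The recovered counts, as deposited by the authors in scaled form, also went into limma-voom, edgeR 4.0.16 and DESeq2 1.42.0. The procedure was tested on simulated data. Depth was 5371687 to 8899521 reads, at which 0 reads leave room for 0.297 to 0.716 CPM (3 reads, counting error only). Where nothing says that a library is 1 animal, p-values measure only the spread between libraries. With 2 against 2, an exact permutation test cannot go below 0.333 and was not used.

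The genes and the lists were chosen with earlier results of these data known. Named were the 7 genes, up to 3 genes of each list with the smallest p among those that met the study's rule without overlap, the 3 transcripts most like each gene, and Arntl, Dbp, Per1, Fkbp5, Pdk4 and Ucp3. Other genes are named only in counts of 5 or fewer and were chosen after their values were seen, and some list genes that the rule selects are not reported here. Alternatives were pseudocounts of 0.25 and 4, other filters, scalings and tests, a replicate block, rows summed per symbol, and each library left out. The labels do not say whether replicate numbers pair the libraries across groups. The correlation of replicate 1 deviations between groups lay between -0.464 and 0.446 and exceeded 0.1 in 4 of 10 pairs of groups, which cannot settle it.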

Additional observations from a re-analysis of the deposited data

How the results depend on the processing

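None of the 7 genes was called in any comparison under 23 of the 24 alternatives. The exception was DESeq2, which called 1 in AP_1h against RA_0, 2 in AP_34d against RA_0 and 2 in AP_34d against PLA_34d, where it called 1.62%, 0.322% and 0.848% of all transcripts. The number of the 7 meeting the study's rule in PLA_1h against RA_0 was 2 with edgeR, with DESeq2, with the compared groups alone and with the replicate block. Of 10259 transcripts, 214, 254, 258 and 191 met it in these settings, against 171 in the main fit. In PLA_34d against RA_0 the number of the 7 was 1 with edgeR, DESeq2 and the replicate block (431, 501 and 286 of all transcripts, against 248 in the main fit). In AP_1h against PLA_1h it was 1 with quantile normalization, edgeR and DESeq2 (299, 339 and 365 of all transcripts, against 269 in the main fit). With 1 library left out, the genes meeting the rule changed, and so did the number of all transcripts meeting it. Leave-out counts of the 7 therefore cannot be set against the shares of the full fit. Over the 24 alternatives, the log2 difference in AP_34d against PLA_34d lay between 2.12 and 3.84 for Fbxo32 and between 2.28 and 3.17 for Trim63. For Foxo1 it lay between 0.18 and 1.65. The pairs of genes with an adjusted p under 0.05 ranged from 0 to 2, the second being Trim63 and Mstn without AP_34d replicate 1. The replicate block, fitted although no label says that the replicate numbers pair libraries, changed no other count of the 7 genes. Over all transcripts it took the calls in AP_1h against RA_0 from 3 to 0, so that Arntl lost its call.

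Fbxo32 in AP_1h against PLA_1h turned to 0.25 with edgeR and 0.26 with DESeq2 and ranged from -1.10 to 0.93 with 1 library left out. Trim63 in PLA_34d against RA_0 turned to 0.10 with quantile normalization and 0.061 without the 20 most abundant transcripts, and ranged from -0.57 to 0.33. Foxo1 ranged from -0.34 to 1.34 in AP_1h against PLA_1h and from -0.42 to 1.25 in the interaction. Of 28 differences of the other 4 genes, 16 changed sign under at least 1 alternative and none was called. Leaving out the 20 most abundant transcripts moved the median of all transcripts to -0.15 in AP_34d against PLA_34d, 0.15 in PLA_34d against RA_0 and -0.20 in the interaction, a move of at most 0.22, and the proportion of calls by the study's rule that were higher in AP_34d than in PLA_34d from 38.8% to 22.0%. Quantile normalization moved that proportion in PLA_34d against RA_0 from 81.9% to 65.9%. Arntl, which passed, lost its call under 13 alternatives, among them pseudocount 4, limma-voom, edgeR and the removal of either library of RA_0 or AP_1h. The causes were not tested. With 2 libraries a group, precision was limited by the spread between libraries more than by reads. A difference whose interval includes 0 was not told apart from 0 here, which does not show that it is absent.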
